A study of Mus musculus with 8 samples.

Results

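The genes described here code for the proteins of the cytosolic ribosome, measured in neutrophils from the inflamed mouse spinal cord. They are all genes whose symbol is Rpl, Rps or Rplp followed by a number and at most a single further letter (a, l, x or y). Pseudogenes were left out. The set was chosen with earlier results of these data known, so it was not tested as a set. In the GENCODE M21 annotation of build GRCm38, 79 protein-coding genes carry such a symbol, and 78 of them were among the 23369 genes of the count table. Of these, 48 belong to the large subunit and 30 to the small subunit. A filter on low counts was passed by 75 of the 78 genes, 46 of the large and 29 of the small subunit, and by 12610 genes in all. The 3 that did not pass were Rpl24, Rpl39l and Rps10, and Rpl10l was not analysed here. The tested members were present in both groups, and the lowest value of any of them in any library was 1.15 counts scaled to library size (CPM), in Rpl3l.

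The neutrophils came from C57BL/6N mice with induced experimental autoimmune encephalomyelitis (EAE), an autoimmune inflammation of the brain and spinal cord that serves as a model of multiple sclerosis. All animals carried the disease, and the labels name no untreated mice. Cells positive for CD45 (leukocytes), CD11b (myeloid cells) and Ly6G (neutrophils) were sorted from spinal cords taken at zeitgeber time 1 (ZT1, n = 4) or 13 (ZT13, n = 4), where zeitgeber time counts hours from lights on. The labels give neither the age of the mice nor an identifier for each animal, so p-values measure only the spread between these samples.

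Each ribosome is built from a small subunit, which binds the mRNA and reads its codons, and a large subunit, which joins the amino acids. Most of the proteins are present in a single copy per ribosome, so their genes tend to be expressed together. Their mRNAs begin with a stretch of pyrimidines (C and T in the DNA), the terminal oligopyrimidine tract, through which the kinase mTOR and the protein LARP1 set how much of each mRNA is translated. Mature neutrophils are known for a low ribosome content, since most of their granule proteins are made earlier, in the bone marrow.

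Stretches of C and T stood near the annotated starts of most of these genes, and 8 are shown, for members whose values are described further on and for different lengths of the run. RefSeq promoters of build GRCm38.p6 were matched by symbol for 58 of the 78 genes. The longest unbroken run of C and T was searched on the gene's own strand from 50 bases before to 50 bases after the annotated start, taking the start with the longest run where a gene has several. The windows hold 30 bases in the direction of transcription, and capitals mark that run. Counted from the annotated start, the run begins at base 14 in Rpl11, 27 in Rpl4, 24 in Rpl37a and 32 in Rpl6. It begins at base 41 in Rps4x and 32 in Rpl3l, and before the start in Rps24 (-37) and Rps9 (-6). None of the 8 runs shown begins at the annotated start itself.
Rpl11, chr4:136053357-136053386, minus strand: cggaagTCTCCCTCTCTCTTCCTgttctcc
Rps24, chr14:24490711-24490740, plus strand: agcggTCCTCTTTTCCTCCTCTCCagctcc
Rpl4, chr9:64173406-64173435, plus strand: agcgtggCCTTCTCCTCTCCCCgtcatggt
Rpl37a, chr1:72711275-72711304, plus strand: gcattgcgTCCCTTCCTCTTCggacttggg
Rpl6, chr5:121204521-121204550, plus strand: cgctgccttagTTCTCTTTCCCgtcttgca
Rps9, chr7:3704025-3704054, plus strand: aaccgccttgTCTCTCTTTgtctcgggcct
Rps4x, chrX:102189342-102189371, minus strand: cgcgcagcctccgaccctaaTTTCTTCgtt
Rpl3l, chr17:24727846-24727875, plus strand: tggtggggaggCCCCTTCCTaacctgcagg
A run of 8 or more stood near the start of 51 of the 58 genes (87.9%), against 39.2% of 26967 other genes and 35.7% of all 32851 promoters. The median run was 11 letters long in the ribosomal protein genes and 7 in the others. Both subunits had it, with 33 of 36 matched large subunit genes and 18 of 22 small subunit genes. A C at the annotated start itself, followed by at least 4 more C or T, was found in 13 of the 58 genes (22.4%) and in 2.97% of other genes. These counts describe letters near annotated starts, and a match is not evidence of a working tract. The log2 fold change for ZT13 over ZT1 had a median of 0.47 in the 49 tested genes with such a run and of 0.39 in the 6 with a shorter run.

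Ribosomal protein mRNAs made up a small part of these libraries. The 78 genes held 1459606 counts, which is 0.330% of all counts in the 8 libraries. Levels between genes were compared as CPM per kilobase of the main mRNA. The median gene stood at 43.4 CPM per kb over all libraries, with a median of 38.3 in the large subunit and 59.9 in the small subunit. The genes spread from 0.168 (Rpl39l) to 375.5 CPM per kb (Rps9).

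The most abundant member was Rps9, a small subunit protein that binds ribosomal RNA early in assembly. It stood at 318 ± 84.3 CPM per kb (SD, n = 4) at ZT1 and 433 ± 21.6 at ZT13. The next in the small subunit were Rps27, a zinc finger protein, with 133 ± 37.3 and 171 ± 25.5 CPM per kb, and Rps14, a protein near the mRNA exit, with 116 ± 39.7 and 150 ± 6.28. In the large subunit the order was led by Rpl13 with 140 ± 36.7 and 183 ± 21.7 CPM per kb, followed by Rpl4 with 125 ± 9.18 and 142 ± 13.9 and Rpl41, the smallest ribosomal protein, with 111 ± 19.4 and 157 ± 34.1. Rps9 stood above the other members named here in every library. At ZT13 Rpl13 stood above Rpl4 in all 4 libraries, and at ZT1 in all but replicate 4. Differences between neighbours in this order were not tested.

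Some of the spread in level can come from reads that fit several genes, because ribosomal protein genes have many processed pseudogenes. Of the 78 members, 58 have at least 1 named pseudogene in the annotation, 288 in all. Only pseudogenes whose symbol is the member's symbol followed by -ps were counted, so copies under other names are left out. The table listed 160 of these pseudogenes, and they held 6641 counts, equal to 0.455% of the members' own counts. A median of 23.6% of the 50-base stretches in a member's transcripts, the read length of the study, recurred in the transcripts of another gene, with a range from 0 to 84.0%. Rpl37a, for example, has 0 pseudogenes counted by symbol, while 203 other genes share such stretches with it. How the authors counted reads that fit several places was not given in the sources used here, so levels of members with near-identical copies are uncertain. The log2 fold change had a median of 0.47 in the 40 members with under 25% of such stretches and under 25% of exon bases shared with an overlapping gene, and 0.46 in the other 35.

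The question of the comparison was how these genes differ between the early light phase and the early dark phase. All 75 tested members had a positive log2 fold change for ZT13 over ZT1, against 47.7% of all 12610 genes tested. With library totals as the only scaling 74 of 75 did, Rpl3l being the exception, and Rpl3l also changed sign in some other fits. The median was 0.46 in the members and -0.02 in all genes. No member passed the test (edgeR quasi-likelihood test, Benjamini-Hochberg adjusted p from 0.255 to 0.996), and none of the 12610 genes did, which is a background of 0%. At an unadjusted p under 0.05, 48 of the 75 members (64.0%) had higher values at ZT13 and none had lower values, where the background over all genes was 4.35% higher at ZT13, 4.85% lower and 9.2% in either direction. DESeq2, run as an alternative, called 3 members, Rpl6 and Rpl11 among them, all higher at ZT13, against a background of 0.341% of genes in that direction. In a DESeq2 fit without a filter on low counts, added after the data were seen, it called 5, with Rps4x among them, against 0.605%.

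The fold changes lay mostly in a narrow range. They ranged from 0.01 (Rpl3l) to 0.73, with 69 of 75 between 0.25 and 0.75 and standard errors from 0.10 to 0.47. The 95% interval held the members' median in 73 genes. The 2 intervals that lay below it were those of Rpl4 and Rplp0. The members were measured in the same libraries and largely moved together in them. These errors therefore do not measure differences between members, which were not tested. An increase of 1 on the log2 scale, a doubling, lay inside the interval of 16 members and above that of the others.

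**Figure D1:**
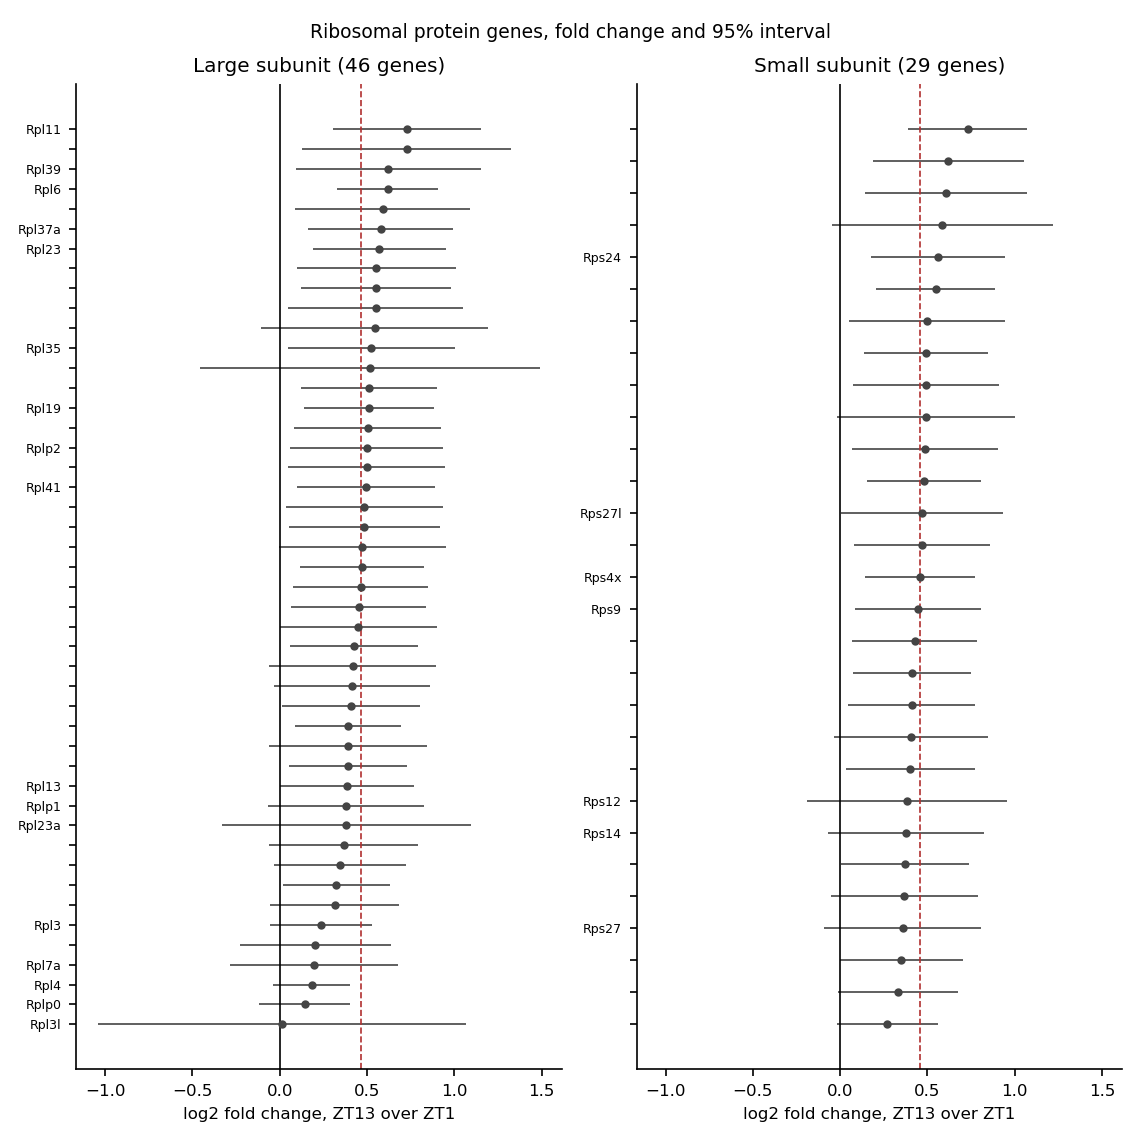
Log2 fold change of ZT13 over ZT1 (x axis) for each of the 46 large and 29 small subunit genes tested (y axis, with names for the genes described in the text), with points for the edgeR estimate, bars for the 95% interval and a dashed line at the subunit's median. All points lie right of 0, the medians are 0.47 and 0.46, and 27 of the 75 intervals include 0. Rpl3l falls left of 0 with library totals alone and in some other fits.

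The medians of the large and the small subunit lay close together, and their difference was not tested. The median log2 fold change was 0.47 over 46 large subunit genes and 0.46 over 29 small subunit genes, a difference of 0.01. At an unadjusted p under 0.05, 29 large and 19 small subunit genes were higher at ZT13. In the large subunit 7 genes and in the small subunit 8 genes had all 4 ZT13 libraries above all 4 ZT1 libraries, where 2.66% of all genes tested did.

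The balance of the subunits was also given by each library on its own. The mean log2 CPM of the large subunit minus that of the small subunit was -0.52, -0.54, -0.54 and -0.48 in ZT1 replicates 1 to 4, and -0.46, -0.55, -0.59 and -0.58 in ZT13 replicates 1 to 4. The groups overlapped, with means of -0.52 ± 0.03 and -0.54 ± 0.06 (SD, n = 4). Counts in large subunit genes were 1.37 ± 0.05 times those in small subunit genes at ZT1 and 1.31 ± 0.06 times at ZT13.

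The level of the set differed more between libraries of 1 group than the balance did. The members took 0.277%, 0.282%, 0.345% and 0.262% of all counts in ZT1 replicates 1 to 4, and 0.381%, 0.386%, 0.324% and 0.401% in ZT13 replicates 1 to 4. The groups overlapped in this share, because ZT1 replicate 3 lay above ZT13 replicate 3. The mean log2 CPM of the large subunit was 4.31, 4.47, 4.82 and 4.27 at ZT1 and 4.91, 4.88, 4.77 and 5.09 at ZT13, with the same overlap. For the small subunit it was 4.82, 5.01, 5.36 and 4.75 at ZT1 and 5.37, 5.43, 5.36 and 5.66 at ZT13, where the highest ZT1 library (5.3558) and the lowest ZT13 library (5.3565) nearly touched.

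**Figure D2:**
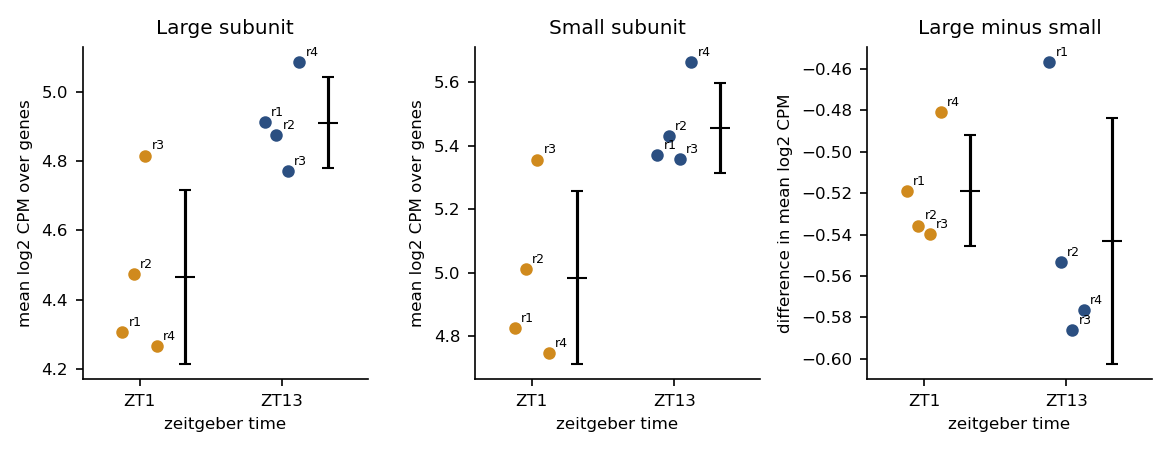
Mean log2 CPM of the large subunit genes, of the small subunit genes and their difference (y axes) in each library (points, r1 to r4 for replicates 1 to 4) at ZT1 and ZT13 (x axis), with the group mean and SD as a bar. ZT1 r3 sits at the level of the ZT13 libraries in both subunits (4.82 and 5.36), and the differences of the 2 groups overlap.

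The libraries thus did not fall cleanly by time. In ZT1 replicates 1, 2 and 4, 2, 0 and 1 of the 75 members were above their own median over the 8 libraries, while ZT1 replicate 3 had 58. The ZT13 libraries had 64, 62, 42 and 71. The highest of the 8 values was in ZT13 replicate 4 for 43 members, and the lowest was in ZT1 replicate 4 for 43 and in ZT1 replicate 1 for 28. ZT1 replicate 3 lay above the lowest ZT13 library in 59 members, and the other ZT1 libraries reached that far in 12. Leaving out ZT1 replicate 3 gave a median log2 fold change of 0.59 and 67 members at an unadjusted p under 0.05 (edgeR). That count was 18 without ZT1 replicate 1, 27 without ZT1 replicate 2, 17 without ZT1 replicate 4 and 21 without ZT13 replicate 4, and the median was then 0.39, 0.44, 0.38 and 0.38. ZT13 replicate 3, which stood apart from the other libraries over all genes, changed little when left out, with a median of 0.50 and 48 members.

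**Figure D3:**
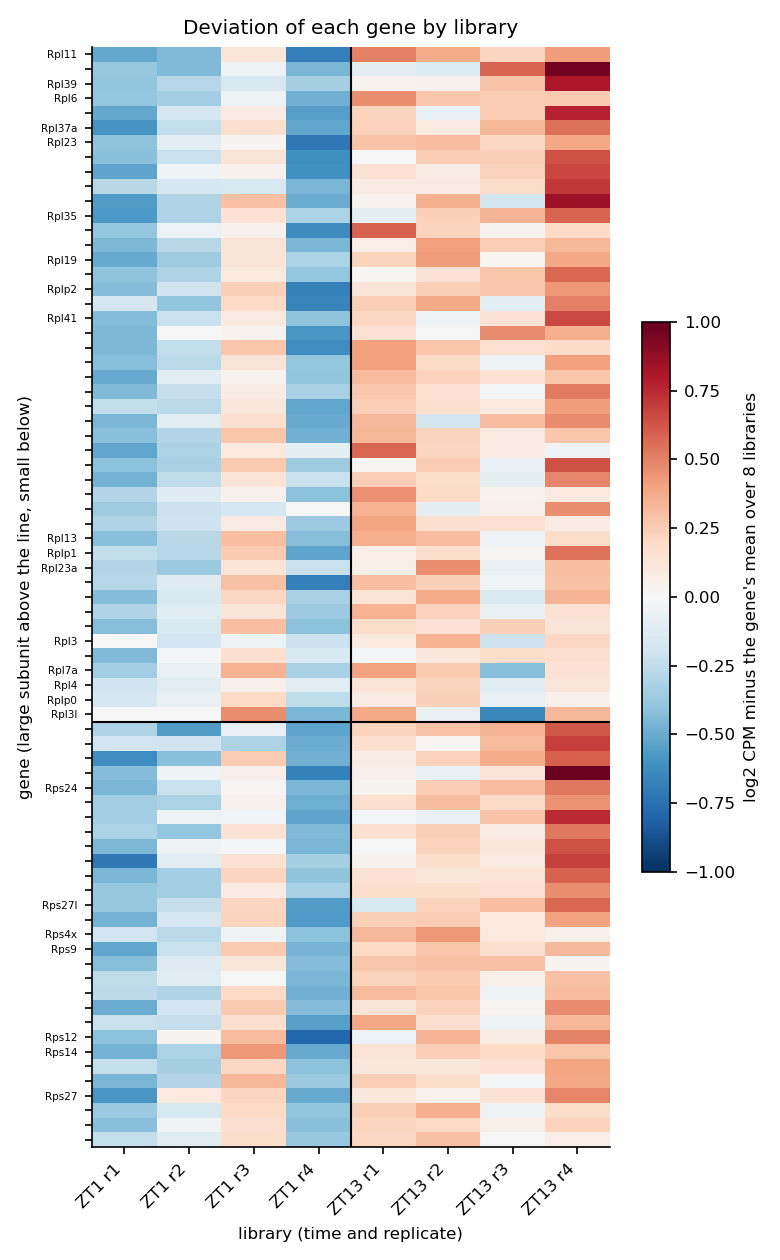
Log2 CPM of each tested member minus its mean over the 8 libraries (colour, blue below and red above the mean), with genes as rows (large subunit above the line, names for the genes described in the text) and libraries as columns (ZT1 left of the line). The columns of ZT1 r1, r2 and r4 are blue and that of ZT1 r3 is pale red like the ZT13 columns, in both subunits, and deviations run from -0.78 to 0.98.

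Rpl6 and Rpl11 had the smallest p of the large subunit. Rpl6 (ENSMUSG00000029614.14, GRCm38 chr5:121204481-121209241, plus strand), a large subunit protein, had 31.3, 32.3, 39.4 and 29.2 CPM at ZT1 and 56.1, 49.0, 48.7 and 49.0 CPM at ZT13. Its groups did not overlap, and 3 of the 4 ZT13 values lay within 1 CPM of each other. Its log2 fold change was 0.62 ± 0.13 (SE; edgeR adjusted p = 0.255, DESeq2 adjusted p = 0.00328). Rpl11 (ENSMUSG00000059291.16, GRCm38 chr4:136028265-136053428, minus strand) forms a particle with Rpl5 and a small ribosomal RNA that, outside the ribosome, binds the p53 regulator Mdm2. Its values were 17.1, 17.9, 26.5 and 15.1 CPM at ZT1 and 34.7, 31.5, 28.3 and 32.6 CPM at ZT13. ZT1 replicate 3 came close to ZT13 replicate 3 without reaching it. The log2 fold change was 0.73 ± 0.19 (SE; edgeR adjusted p = 0.396, DESeq2 adjusted p = 0.0420).

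The other members with small p showed shifts of like size. In the large subunit, Rpl23, which like Rpl11 can bind Mdm2, stood at 24.5 ± 5.41 CPM (SD, n = 4) at ZT1 and 36.4 ± 1.86 at ZT13, without overlap of the groups. Rpl37a stood at 32.9 ± 8.17 and 49.2 ± 6.75 CPM and Rpl19 at 31.3 ± 6.35 and 44.6 ± 5.46. In both of these the groups overlapped through ZT1 replicate 3. In the small subunit, Rps4x, coded on the X chromosome, stood at 31.0 ± 3.35 and 42.5 ± 5.45 CPM. Rps24 had 15.5, 18.2, 21.4 and 15.5 CPM at ZT1 and 21.6, 25.4, 26.4 and 30.7 CPM at ZT13, with its highest ZT1 and lowest ZT13 library close together. The groups of these 2 did not overlap. Rps19 and Rps24 are, with Rpl5 and Rpl11, among the genes whose loss causes Diamond-Blackfan anaemia, in which red cell formation fails. The log2 fold changes of Rpl23, Rpl37a, Rpl19, Rps4x and Rps24 ran from 0.46 (Rps4x) to 0.58 (Rpl37a), with edgeR adjusted p from 0.449 to 0.482.

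**Figure D4:**
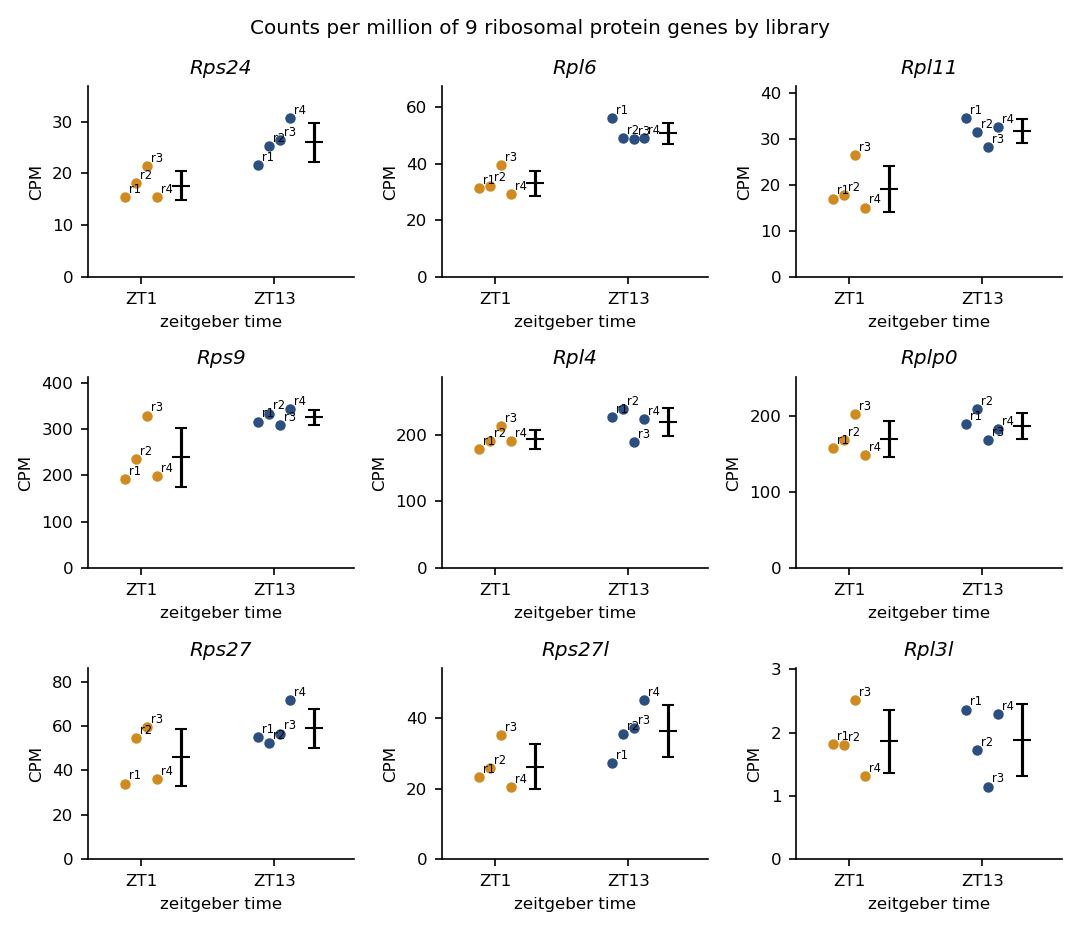
CPM (y axes, from 0) of 9 members in each library (points, r1 to r4) at ZT1 and ZT13 (x axes), with the group mean and SD as a bar. The groups do not overlap in Rps24, Rpl6 and Rpl11, while in the other 6 at least 1 ZT1 library reaches the ZT13 values.

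At the other end were abundant and rare members alike. Rpl4 had 178, 190, 212 and 191 CPM at ZT1 and 226, 239, 188 and 223 CPM at ZT13. Only ZT13 replicate 3 fell among the ZT1 values, and the log2 fold change was 0.18 ± 0.10 (SE; 95% interval -0.04 to 0.40). The abundant Rps9 had 192, 235, 329 and 199 CPM at ZT1 and 316, 333, 308 and 344 CPM at ZT13, so that ZT1 replicate 3 stood with the ZT13 libraries. Its log2 fold change of 0.45 ± 0.16 (SE) was near the median of the set. Rpl7a stood at 33.0 ± 7.74 and 37.8 ± 8.63 CPM (SD, n = 4) and Rps12 at 12.5 ± 4.08 and 16.3 ± 2.85, with log2 fold changes of 0.20 ± 0.21 and 0.38 ± 0.26 (SE). Rps27 and Rps12 had the largest p of the small subunit, and Rpl7a and Rpl3l those of the large subunit (edgeR adjusted p from 0.644 to 0.996).

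The stalk proteins form the flexible arm of the large subunit that recruits elongation factors, with Rplp0 at its base and pairs of Rplp1 and Rplp2 attached. Rplp0 had 158, 169, 203 and 149 CPM at ZT1 and 189, 210, 168 and 183 CPM at ZT13. The ranges lay largely over each other, and its log2 fold change was 0.14 ± 0.12 (SE; 95% interval -0.12 to 0.40). Rplp1 stood at 23.5 ± 5.78 and 30.7 ± 5.39 CPM (SD, n = 4), and Rplp2 at 26.5 ± 7.45 and 37.4 ± 3.31 CPM. Their log2 fold changes were 0.38 ± 0.20 and 0.50 ± 0.20 (SE). The intervals of Rplp1 (-0.06 to 0.83) and Rplp2 (0.06 to 0.94) both held the estimate of Rplp0, and differences between members were not tested.

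Paralogs, second genes for the same ribosomal protein, were measured beside their main genes. Rps27l, which p53 can induce, had 23.3, 25.8, 35.3 and 20.6 CPM at ZT1 and 27.4, 35.7, 37.3 and 45.3 CPM at ZT13. Per kilobase it stood at 52.6 ± 12.8 and 73.0 ± 14.7 CPM, below Rps27 in both groups. The log2 fold changes were 0.47 ± 0.21 (SE) for Rps27l and 0.36 ± 0.20 for Rps27. Rpl3l, a form of Rpl3 known from heart and skeletal muscle, was present at 1.86 ± 0.50 and 1.88 ± 0.57 CPM (SD, n = 4), against 66.4 ± 4.89 and 78.2 ± 12.2 CPM for Rpl3. Its log2 fold change was 0.01 ± 0.47 (SE), and its sign changed with the processing. Rpl39l, known from the testis, had 5, 0, 12 and 0 counts at ZT1 and 0, 11, 1 and 11 counts at ZT13, while Rpl39 stood at 6.60 ± 0.47 and 10.2 ± 2.77 CPM. A count of 0 allows up to 3 counts, which is 0.0442 to 0.0650 CPM in these libraries.

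Both other untested members are main ribosomal protein genes with few counts. Rpl24 had 3, 10, 9 and 0 counts at ZT1 and 14, 3, 0 and 11 at ZT13, and 47.0% of its exon bases overlap the gene Gm28037. Rps10 had 26, 10, 9 and 12 counts at ZT1 and 0, 1, 50 and 7 at ZT13, and 28.7% of its exon bases overlap Gm15420 and the readthrough gene RPS10-NUDT3. How reads in exons of overlapping genes were counted was not given in the sources used here, and the part of overlap in these low counts was not tested. Rpl23a and Rpl35, with 62.3% and 66.2% of exon bases in overlap, passed the filter with 1469 and 6484 counts.

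The members are short mRNAs, and short mRNAs of other genes had higher values at ZT13 as well. The median main mRNA of the 75 members was 729 bases long (range 271 to 3706), against 2755.5 bases in the other protein-coding genes tested. The 810 other protein-coding genes with mRNAs under 1000 bases had a median of 0.33 in log2 fold change, and 83.1% were positive. In the 90 of them under 500 bases the median was 0.41, in 2581 genes of 1000 to 2000 bases 0.07, in 4417 genes of 2000 to 4000 bases -0.09 and in 2956 longer genes -0.10. Among members the median was 0.47 in the 58 under 1000 bases and 0.41 in the 15 of 1000 to 2000 bases.

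The short genes also followed the same libraries. The mean deviation from each gene's own mean, on the log2 CPM scale, was -0.26, -0.10, 0.23 and -0.32 at ZT1 and 0.06, 0.21, 0.01 and 0.16 at ZT13 in the 810 short genes. In the 75 members it was -0.39, -0.21, 0.13 and -0.44 at ZT1 and 0.20, 0.20, 0.10 and 0.42 at ZT13. ZT1 replicate 3 was again the ZT1 library with positive values in both sets. The part of mRNA length in the difference between members' groups was not tested.

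**Figure D5:**
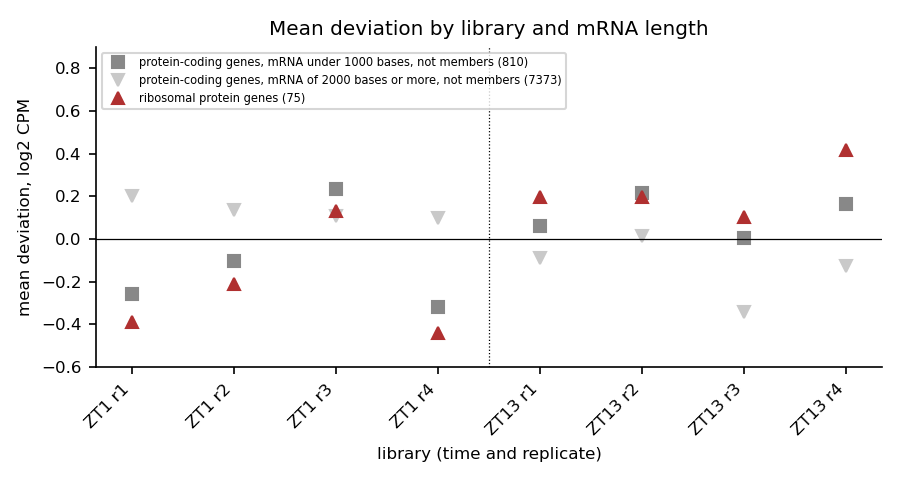
Mean deviation of log2 CPM from each gene's own mean over 8 libraries (y axis) in each library (x axis), for the 75 ribosomal protein genes (triangles), 810 other protein-coding genes with mRNAs under 1000 bases (squares) and 7373 with mRNAs of 2000 bases or more (inverted triangles). Members and short genes lie below 0 in ZT1 r1, r2 and r4 and above 0 in the other 5 libraries, while long genes lie above 0 in all 4 ZT1 libraries.

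Other measures of the libraries moved with the groups too, and their part in the result was not tested. The total counts were 46152067 to 67873023 per library, with 15760 to 17701 genes detected at ZT1 and 13945 to 15751 at ZT13, without overlap. The 13 neutrophil markers summed to 137578 to 177160 CPM at ZT1 and 180769 to 229658 CPM at ZT13, also without overlap, and were led by the granule protein gene Ngp. Taken singly, 12 of the 13 had positive fold changes, beside 47.7% of all genes tested, but the groups overlapped in all except Lcn2. The log2 fold change was 0.50 ± 0.13 (SE) for Lcn2, 0.02 ± 0.07 for Itgam and -0.29 ± 0.11 for Csf3r. In bulk samples, fewer cells of a type and less RNA per cell cannot be told apart. The 13 markers of immature and cycling neutrophils, cells known for more ribosomes, summed to 799 to 1762 CPM at ZT1 and 862 to 1197 CPM at ZT13 and overlapped. Of these 13, 4 had positive fold changes, beside 47.7% of all genes tested, with a median log2 fold change of -0.17. The 6 erythroid markers summed to 0.422 to 3.81 CPM and 2.52 to 30.1 CPM. The summed markers of microglia (125 to 236 CPM over all libraries), monocytes and macrophages, T and NK cells, B cells, oligodendrocytes, astrocytes and endothelial cells overlapped between the groups. Single genes of these lists did not all overlap. The monocyte gene Ly6c2 had 754, 859, 1048 and 679 CPM at ZT1 and 1110, 1298, 1105 and 1150 CPM at ZT13, with a log2 fold change of 0.48 ± 0.13 (SE), beside the members' median of 0.46. The B cell gene Cd79b was likewise above all ZT1 libraries in all ZT13 libraries, at 0.940 to 1.95 and 2.28 to 4.51 CPM, and the macrophage gene Mrc1 was below them, at 0.585 to 2.26 and 0 to 0.135 CPM. The monocyte gene Ccr2 had a log2 fold change of -0.41 ± 0.16 with overlapping groups. The neuron markers summed to at most 0.630 CPM in any library. ZT13 replicate 3 stood apart on the first principal component of all genes, which held 30.4% of the variance, and ZT13 replicates 1 and 4 lay at opposite ends of the second.

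The rule by symbol leaves out some ribosomal proteins whose genes have other names, and these were counted separately, followed by further lists of the pathway. Over all genes tested, 47.7% were positive, and at an unadjusted p under 0.05 the share was 4.35% higher and 4.85% lower at ZT13, against which the counts of each list are to be read. Differences between the lists and the members were not tested. Of 8 such genes and paralogs, all tested, 6 had positive fold changes, none passed the edgeR test, and 2 were higher at ZT13 at an unadjusted p under 0.05, with a median log2 fold change of 0.14. The 2 were Fau, whose product is cut into a ubiquitin-like protein and the small subunit protein S30, with 61.6 ± 17.7 CPM at ZT1 and 88.2 ± 4.45 at ZT13 (SD, n = 4), and Rps3a1, with 50.5 ± 7.59 and 66.3 ± 7.68. Rpsa, the laminin receptor protein of the small subunit, stood at 64.4 ± 11.3 and 69.8 ± 11.02 CPM, and Rack1, a scaffold for kinases on the small subunit, at 51.0 ± 8.41 and 61.6 ± 8.57. The groups of all 4 overlapped.

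Of 15 other mRNAs known for a terminal oligopyrimidine tract, 13 were positive, none passed the edgeR test, and 2 were higher at an unadjusted p under 0.05, with a median log2 fold change of 0.16. Naca, a chaperone at the ribosome's exit tunnel, stood at 43.1 ± 6.54 CPM at ZT1 and 60.3 ± 7.17 at ZT13 (SD, n = 4), and Eef1b2, an exchange factor for elongation, at 17.7 ± 3.05 and 24.7 ± 4.67. The elongation factors Eef1a1, with 346 ± 15.6 and 356 ± 69.9 CPM, and Eef2, with 252 ± 22.8 and 227 ± 55.4 CPM, had log2 fold changes of 0.04 ± 0.14 and -0.15 ± 0.16 (SE).

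Of 19 tested genes that regulate the translation of ribosomal protein mRNAs, 7 were positive, with a median of -0.10, none passed the edgeR test, and at an unadjusted p under 0.05 there was 1 higher and 1 lower at ZT13. Mtor, the kinase itself, had 11.05, 12.6, 11.7 and 10.2 CPM at ZT1 and 16.9, 21.2, 17.3 and 16.7 CPM at ZT13. The groups did not overlap, and its log2 fold change was 0.66 ± 0.16 (SE; edgeR adjusted p = 0.373). Rps6kb1, a kinase that phosphorylates the ribosomal protein S6, stood at 38.7 ± 6.05 and 31.2 ± 1.22 CPM. Its groups overlapped, and the log2 fold change was -0.31 ± 0.14 (SE).

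Ribosome production has further steps upstream of the proteins. RNA polymerase I, which makes the large ribosomal RNAs, and its factors had 14 of 21 positive fold changes and a median of 0.14, with 3 higher at an unadjusted p under 0.05 and none lower. These were the polymerase subunits Polr1d, with 21.0 ± 3.62 CPM and 29.97 ± 2.41 (SD, n = 4), Polr2f and Polr2e. Of 47 biogenesis and nucleolar factors, 28 were positive, with a median of 0.12. At an unadjusted p under 0.05, 3 were higher and 1 was lower, a share near the 9.2% of all genes in either direction, and the values of these 4 are given as a description. The nucleolar GTPase Gnl3 had 2.89, 4.92, 2.702 and 2.28 CPM at ZT1 and 7.51, 6.16, 7.68 and 6.38 CPM at ZT13, without overlap. Pno1 and Rrp12, which act in the assembly of the small subunit, were the other two higher factors, at 6.82 ± 0.486 and 10.2 ± 0.771 CPM and at 5.30 ± 0.10 and 8.15 ± 0.60 CPM. Efl1, a GTPase that releases an anti-association factor from new large subunits, had 13.1, 11.5, 11.4 and 10.2 CPM at ZT1 and 7.94, 4.95, 4.78 and 4.99 CPM at ZT13. All its ZT13 values were below all ZT1 values, with a log2 fold change of -1.03 ± 0.24 (SE; edgeR adjusted p = 0.314).

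The chaperones and import factors of ribosomal proteins had 6 of 15 positive fold changes and a median of -0.09, with 1 higher (Naca, which is also counted above) and 2 lower at an unadjusted p under 0.05. The lower ones were Aar2, a splicing factor that is not specific to ribosomes, with 22.4 ± 3.25 CPM at ZT1 and 15.3 ± 3.87 at ZT13 (SD, n = 4), and the importin Kpna2, with 152 ± 40.5 and 114 ± 11.9 CPM. Of 12 ribosome quality control factors tested, 3 were positive and none passed an unadjusted p of 0.05, with a median of -0.14. No gene of these 2 lists, of RNA polymerase I or of the biogenesis factors passed the edgeR test with Benjamini-Hochberg adjustment.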

How the data were processed

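Bulk RNA sequencing of sorted spinal cord neutrophils was analysed from 8 libraries. Per the labels' protocols, 1 ng of RNA was amplified with SMART-Seq v4 and Nextera XT libraries, which do not mark the strand, were read in single reads of 50 bases, in 1 batch. The authors deposited a table of raw counts per gene. STAR 2.7.10b, Subread 2.0.3 with featureCounts, DESeq2 1.46.0, FastQC and build GRCm38 are named in the submitters' processing notes, and their settings, including the handling of reads that fit several genes, were not given in the sources used here.

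Members and gene lists were chosen with earlier results of these data known. Symbols were taken from GENCODE M21, which matched 22222 of 23369 identifiers without regard to version. The symbols Rps4l, Rpl32l and Rpl6l also fit the rule but are not annotated as protein-coding and were left out. Main mRNA length was that of the shortest transcript in the best APPRIS class.

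The whole table was fitted with edgeR 4.0.16 in R 4.3.3 (filterByExpr with minimum count 10 and minimum total 15, TMM factors, robust quasi-likelihood fit, Benjamini-Hochberg adjustment over 12610 genes, threshold 0.05). Log2 CPM used a prior count of 2. Each standard error is the size of the log2 fold change over the root of its F statistic. Depth put 3 counts at 0.0442 to 0.0650 CPM, which covers counting error only, and the biological coefficient of variation was 0.498. Chi-square values of 70.1 to 217.9 per gene between libraries of a group gave no sign of a library deposited more than once. The scripts were tested on simulated data.

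Named members are, in each subunit, the 5 with the smallest and the 2 with the largest p and the 3 most abundant per kb, the extremes of fold change, the stalk genes, symbols ending in l, x or y and untested members, with up to 3 genes of smallest p per pathway list and the most abundant gene per marker list. Some items are not reported here, and Rack1, Rpsa, Eef1a1, Eef2, Cd79b, Mrc1, Ccr2, Rpl3, Rpl39, Rpl23a and Rpl35 were named after their values were seen. The alternatives were other normalization factors, other filters, DESeq2 1.42.0, limma-voom (limma 3.58.1), leaving out each library and a replicate block.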

Additional observations from a re-analysis of the deposited data

Results flagged for a closer look

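In groups of 4 libraries, a value was taken as far from the others when its gap to the nearest, as a share of the group's range, exceeded Dixon's 95% critical value, a limit that chance passes in about 1 of 20 groups. Of 60 groups checked, 5 had such a value. ZT1 replicate 3 was above the other ZT1 libraries in Rps14 (104 CPM, others 54.4 to 62.1) and in Rpl13 (152 CPM, others 91.9 to 102). ZT13 replicate 1 was above the others in Rpl6, with 56.1 CPM against 48.7 to 49.0. ZT13 replicate 3 stood apart in Rps10, with 1.00 CPM against 0 to 0.157. In the share of counts in large subunit genes, ZT13 replicate 3 was below the others, with 0.180% against 0.220% to 0.225%.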

How the results depend on the processing

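The count of members past the adjusted threshold was 0 in all edgeR fits (other factors, other filters, a library left out, a block) and with limma-voom, 3 with DESeq2 and 5 with DESeq2 without a filter. The median log2 fold change ranged from 0.38 to 0.59 when a library was left out, and the difference between the subunits' medians from -0.03 to 0.05. The count at an unadjusted p under 0.05 ranged from 17 to 67 in those fits. Deviations of samples with the same number in their titles had correlations of 0.002, -0.001, -0.04 and 0.02. By the number of the library name they were 0.002, -0.001 and 0.05. Such values cannot show whether samples were paired, and the labels give no animal identifiers. With the number of the sample title as a replicate block the count at an unadjusted p under 0.05 was 30. With that of the library name, on 6 libraries, it was 49. The log2 fold change of Rpl3l turned to -0.0259 with library totals alone and to -0.00725 without a filter, and ranged from -0.12 to 0.19 when a library was left out. The causes were not tested. Of the fold changes of named members, 8 passed the threshold, all in the 2 DESeq2 fits, 7 changed sign, all of them Rpl3l, and 398 kept their direction and call. For members above a few CPM the spread between libraries, not depth, set the precision.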
